A study of Mus musculus with 6 samples.

Results

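The mTORC1 kinase complex and the Tsc complex that restrains it were followed at the mRNA level in the livers of mice with a hepatocyte-specific loss of Lkb1. Their genes were taken as a list of 10 (Mtor, Rptor, Mlst8, Deptor, Akt1s1, Tsc1, Tsc2, Rheb, Rps6kb1 and Eif4ebp1), found by gene name on the array, with the brightest probe set kept for a gene that had several. Of the 10, 9 were measured, among 19938 genes in all. Rps6kb1, which encodes the S6 kinase of the pathway, was not analysed here, since no probe set carried its name in the annotation used. The samples were whole livers of 3 Lkb1KOlivad (KO) mice (B253, B304 and B305) and of 3 WT mice (B256, B267 and B302), each on an array of its own. The labels give all 6 mice as female, while the methods say that most of the studies used males. In the KO mice both floxed Lkb1 alleles are cut by TTR-CreTam, a Cre recombinase that is switched on by tamoxifen and driven by the transthyretin promoter of hepatocytes, so that other liver cells keep the gene. The WT mice are littermates without Cre that carry the same floxed alleles, on the same FVB/N background. The methods give 2 injections of 1.5 mg of tamoxifen per mouse at an age of 8 to 12 weeks, with most studies done 15 days later and livers usually taken after 18 h of fasting. The paper describes the array mice as fasted, which the labels do not state.

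mTORC1 is the protein kinase complex through which a cell matches growth to nutrients, insulin and energy. Growth factor signals restrain the Tsc complex, a GTPase-activating complex that otherwise switches off the small GTPase Rheb, and Rheb in its active form turns on mTORC1 at the surface of the lysosome. Lkb1 feeds into this circuit through Ampk, a kinase that it activates and that phosphorylates both Tsc2 and Raptor when energy is low. In the liver the complex drives protein and lipid synthesis after a meal and holds back autophagy, and its activity is read from phosphorylated proteins, which an mRNA array does not measure.

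Stk11, the gene of Lkb1, was the check on the labels. Its log2 signal was 6.52, 6.42 and 6.48 in the KO livers (B253, B304, B305, the order kept below), and 8.24, 8.13 and 7.96 in the WT livers (B256, B267, B302). The groups lay far apart, with a difference of -1.64 (SE 0.12) on the log2 scale, or 0.32-fold, and Stk11 was the 1 gene of 19938 called by limma (adjusted p = 0.00705). That single call is 0.00502% of the genes, and it was lost when mouse B253, B304, B305, B256 or B267 was left out (differences of -1.66 to -1.57, adjusted p of 0.0501 to 0.139). The median signal of an array over all probe sets was 5.03 to 5.08. Arrays correlated with the others at a median r of 0.974 (B302) to 0.982 over all probe sets, and no 2 arrays were identical. Whole liver holds several cell types, and in such RNA fewer cells of a type and less RNA per cell cannot be told apart. The 11 measured hepatocyte markers had mean signals of 9.74 to 12.60 and a median difference of 0.02.

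Across the 9 measured genes, none separated KO from WT livers by the test. Their differences, KO minus WT on the log2 scale, ran from -0.14 (Mlst8) to 0.19 (Deptor), with 4 above 0 and 5 below. The median was -0.0024, against 0.00 over all genes. None had an adjusted p under 0.05 (limma, adjusted p = 0.9997 for each), and none had an unadjusted p under 0.05 in limma, a level that 1.52% of all genes reached as higher and 1.51% as lower. The 95% intervals of the 9 genes together reached from -0.45 to 0.57, so that the data leave room for folds of 0.73 to 1.48 in single genes. The median half-width of those intervals was 0.33, about that of all genes (0.32).

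**Figure D1:**
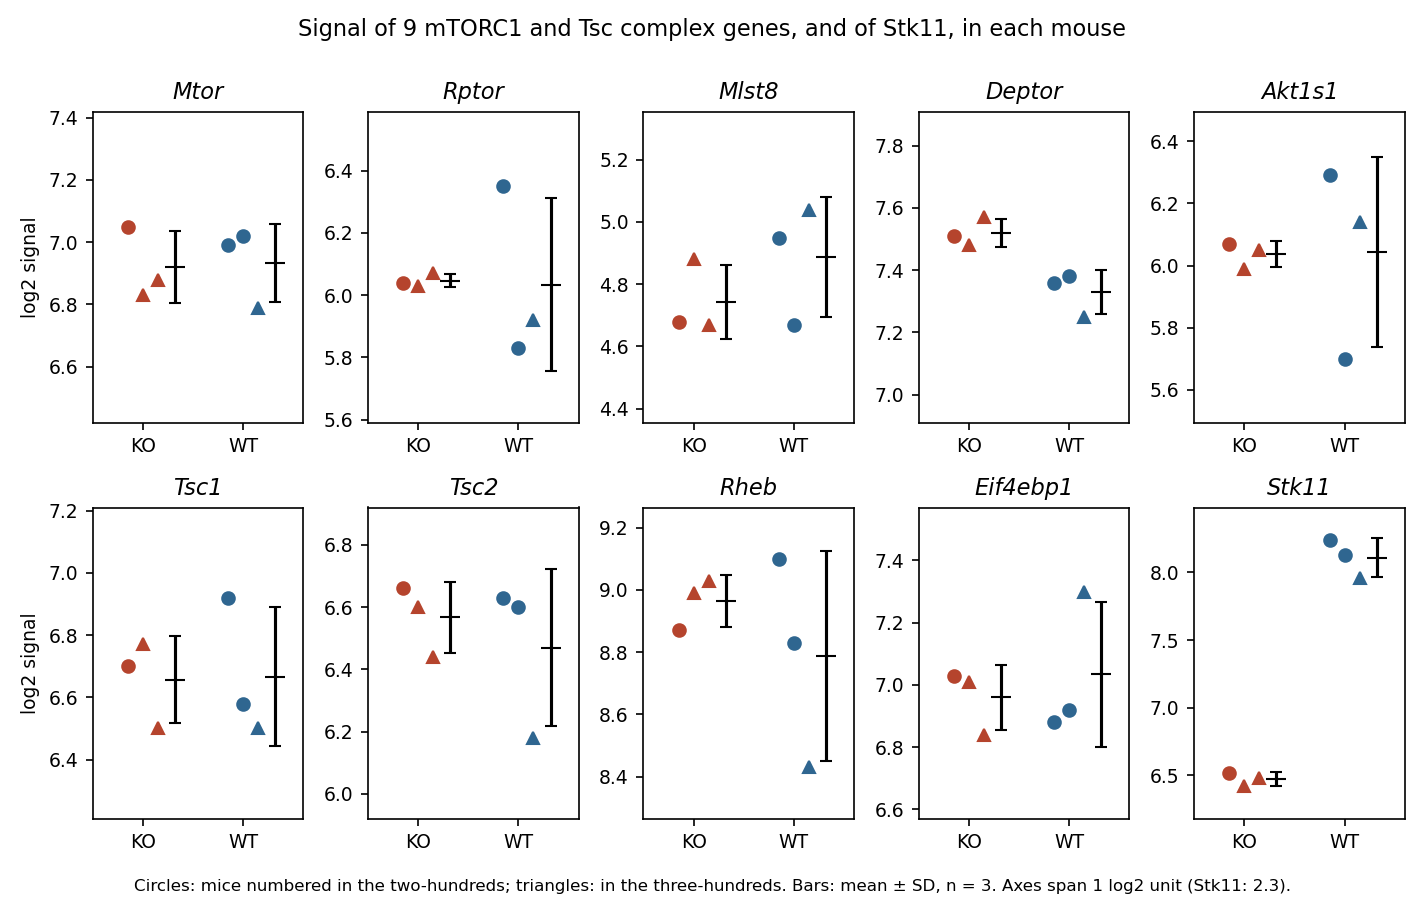
Signal (log2, y axis) of the 9 measured mTORC1 and Tsc complex genes, and of Stk11, in each KO (red, left) and WT (blue, right) mouse, with the mean and SD of 3 mice beside the points. Deptor is the 1 gene of the 9 in which the KO mice, at 7.48 to 7.57, all lie above the WT mice, at 7.25 to 7.38.

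The core of the complex did not differ detectably. Mtor (probe set 10510305), the kinase itself, read 7.05, 6.83 and 6.88 in the KO livers, and 6.99, 7.02 and 6.79 in the WT livers, in the same order of mice. The groups overlapped over nearly their whole range, with a difference of -0.01 (SE 0.12, 95% interval -0.29 to 0.27). Rptor (probe set 10383245) encodes Raptor, the scaffold that brings substrates to the kinase. Its signal was 6.04, 6.03 and 6.07 in KO mice, against 6.35, 5.83 and 5.92 in WT mice. The KO values were close together (SD 0.021) and fell inside the wider WT range (SD 0.28), with a difference of 0.02 (95% interval -0.33 to 0.36). Mlst8 (probe set 10448582), a subunit that stabilises the kinase and is shared with mTORC2, read 4.68, 4.88 and 4.67 in KO mice and 4.95, 4.67 and 5.04 in WT mice. Its mean was the one farthest below WT among the 9 genes, at -0.14 (SE 0.14, 95% interval -0.45 to 0.17), and the groups overlapped. Mlst8 was also the only one of the 9 with a mean signal (4.82) below the median of all genes (5.26).

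Of the 2 inhibitory subunits, Deptor was higher in each KO mouse than in any WT mouse, and Akt1s1 was not. Deptor (probe set 10424126), which binds the kinase in both of its complexes and holds it back, read 7.51, 7.48 and 7.57 in the KO livers and 7.36, 7.38 and 7.25 in the WT livers. All 3 KO values were above all 3 WT values, with 0.10 between the nearest pair, and the means were 7.52 ± 0.05 in KO and 7.33 ± 0.07 in WT livers (SD, n = 3 each). The difference was 0.19 (SE 0.11, 95% interval -0.06 to 0.44), or 1.14-fold (0.96 to 1.35). It did not pass the test (limma, unadjusted p = 0.113, adjusted p = 0.9997), and p was 0.10 in an exact permutation of the mice (two-sided), the smallest value that 3 against 3 allow. Such a complete separation with KO on top was seen in 1 of the 9 genes and in 3.46% of all genes. The opposite separation was seen in none of the 9 and in 3.70% of all genes. Deptor ranked 1521 of 19938 genes by unadjusted p. Its spread within groups (SD 0.061) was smaller than that of 96.4% of genes, and the moderated standard error of limma was accordingly wider than the one its own values give. In the methods' t-test, which uses only the gene's own spread, it reached an unadjusted p of 0.0187 (adjusted p = 0.9996), a level at which that test put 1 of the 9 genes and 1.39% of all genes as higher, and none of the 9 and 1.72% of all genes as lower. Its unadjusted p was 0.0987 to 0.216 under the other 7 ways of processing, and 0.133 to 0.248 with 1 mouse left out (differences of 0.15 to 0.22). Akt1s1 (probe set 10552752) encodes Pras40, an inhibitory subunit that leaves Raptor once Akt phosphorylates it. Its signal was 6.07, 5.99 and 6.05 in KO mice, against 6.29, 5.70 and 6.14 in WT mice, so the KO mice lay in the middle of the WT range and the means were equal (6.04 each). A second probe set that names Akt1s1 together with a microRNA gene was not used.

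**Figure D2:**
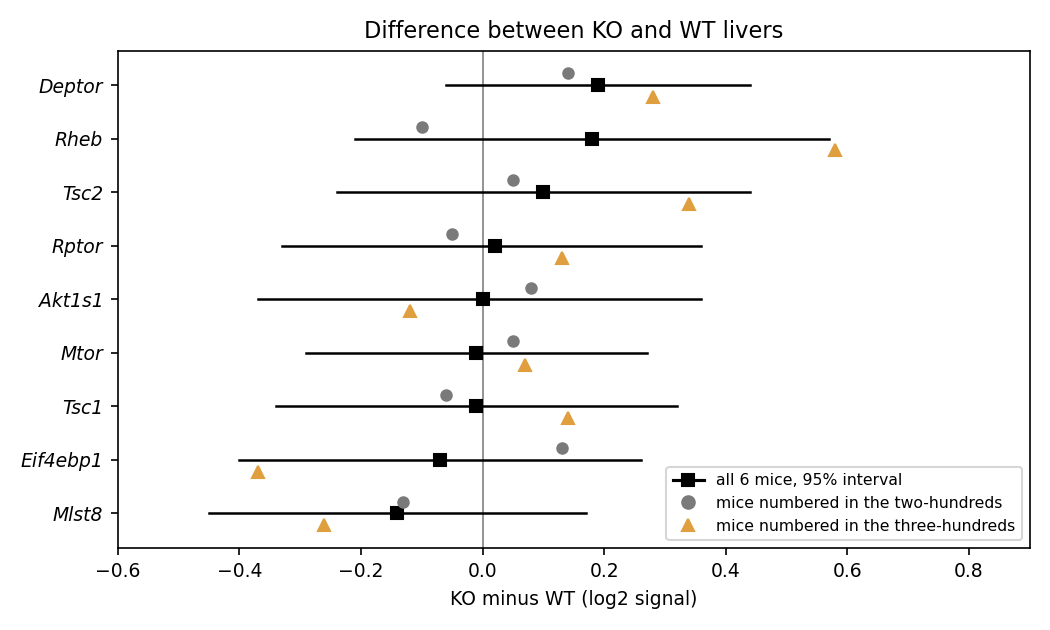
Difference between KO and WT livers (log2 signal, x axis) for each of the 9 genes, as the estimate from all 6 mice with its 95% interval (black), and within the mice numbered in the two-hundreds (grey circles, 1 KO and 2 WT) and in the three-hundreds (orange triangles, 2 KO and 1 WT). Every interval includes 0, and Deptor lies at 0.14 in one number series and 0.28 in the other.

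In the Tsc complex and its target Rheb no difference was detectable either. Tsc1 (probe set 10470584), which encodes hamartin and keeps its partner stable, had signals of 6.70, 6.77 and 6.50 in KO livers and 6.92, 6.58 and 6.50 in WT livers. The lowest value of either group was the same to 2 decimals, and the difference was -0.01 (95% interval -0.34 to 0.32). Tsc2 (probe set 10448631) encodes tuberin, the subunit with the GTPase-activating domain. It read 6.66, 6.60 and 6.44 in KO mice and 6.63, 6.60 and 6.18 in WT mice, a difference of 0.10 (SE 0.15, 95% interval -0.24 to 0.44). Only the WT mouse B302 stood below the rest, and without it the difference was -0.05. Rheb (probe set 10528691), the GTPase that activates the kinase, read 8.87, 8.99 and 9.03 in KO livers and 9.10, 8.83 and 8.43 in WT livers. Its difference of 0.18 (SE 0.17, 95% interval -0.21 to 0.57) came with a range of 0.67 over the 6 mice, the widest of the 9 genes. It lay at -0.00053 without B302 and at 0.33 without WT mouse B256, so that 1 WT mouse at either end set the value.

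Eif4ebp1 stood for a protein on which the pathway acts, and its mRNA is no measure of that action. The gene (probe set 10571162) encodes 4E-BP1, the repressor of cap-dependent translation that mTORC1 inactivates, and in mammalian cells its gene is also a target of the stress factor Atf4. Its signal was 7.03, 7.01 and 6.84 in KO mice, against 6.88, 6.92 and 7.30 in WT mice. The groups overlapped, with a difference of -0.07 (SE 0.14, 95% interval -0.40 to 0.26). The highest value was again that of B302, without which the difference was 0.06.

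Several of the differences thus turned on single WT mice. B302 had the lowest signal of the 6 mice for 5 of the 9 genes (Mtor, Deptor, Tsc1, Tsc2 and Rheb) and the highest for Mlst8 and Eif4ebp1. Its deviations from the gene means ran from -0.44 (Rheb) to 0.30 (Eif4ebp1). B256 had the highest signal for 4 genes (Rptor, Akt1s1, Tsc1 and Rheb), and B267 the lowest for 3 (Rptor, Mlst8 and Akt1s1). The KO mice held the lowest value of 1 gene (Eif4ebp1) and the highest of 3 genes (Mtor, Tsc2 and Deptor). Over all genes the median absolute deviation was 0.13 in B302 and 0.10 to 0.11 in the other 5 mice, and over the 9 genes it was 0.18 in B302, 0.14 in B305, 0.13 in B256 and 0.04 to 0.08 in the other 3 mice.

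**Figure D3:**
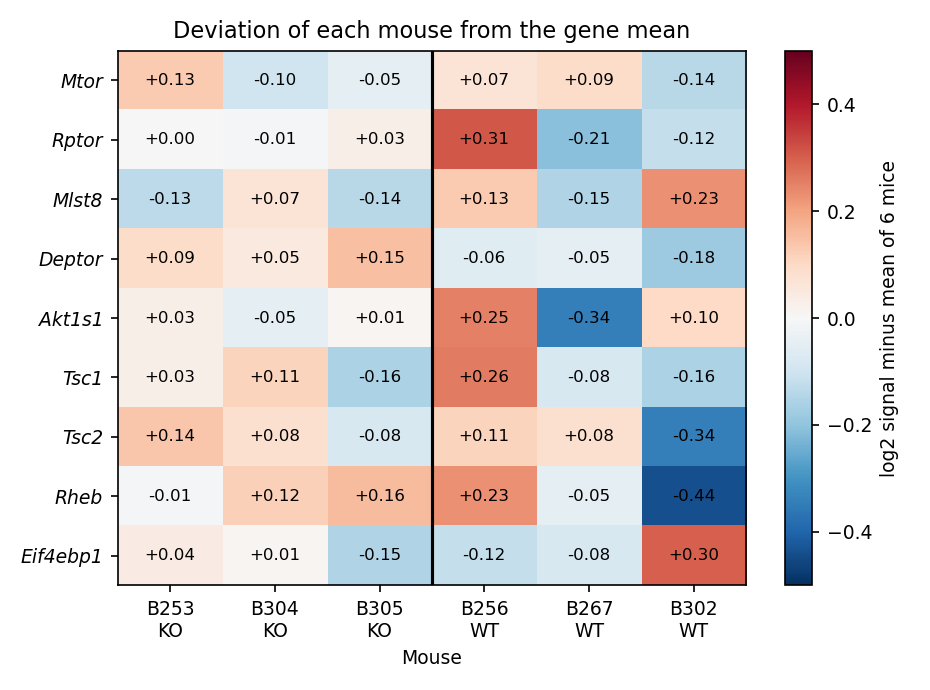
Signal of each mouse (columns, KO left of the line and WT right of it) minus the mean of the 6 mice, on the log2 scale, for each of the 9 genes (rows). B302 runs from -0.44 for Rheb to 0.30 for Eif4ebp1.

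The mice are numbered in the two-hundreds (KO mouse B253, WT mice B256 and B267) and the three-hundreds (KO mice B304 and B305, WT mouse B302), and the labels do not say whether this marks a batch. Within these number series 4 of the 9 genes kept one sign and 5 changed it. Deptor was 0.14 and 0.28 higher in KO, Tsc2 0.05 and 0.34 higher and Mtor 0.05 and 0.07 higher in the two-hundreds and three-hundreds. Mlst8 differed by -0.13 and -0.26. Rheb differed by -0.10 in the two-hundreds and by 0.58 in the three-hundreds, and Eif4ebp1 by 0.13 and -0.37. Each of these values rests on a group of 1 mouse. With the series as a block in limma, Deptor was at 0.21 (unadjusted p = 0.102, adjusted p = 0.968).

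The letters upstream of Mtor, Tsc1, Tsc2 and Rheb are shown because these genes, the kinase, both subunits of its brake and the switch between them, were all lowest in B302. Deptor was the fifth such gene. B302 was also the array least like the others (median r of 0.974 over all probe sets), and a shared cause of these low values was not tested. The letters are read 5′ to 3′ towards the gene from RefSeq (GRCm38.p6), up to the base before the annotated start. Promoter windows were held for 8 of the 10 genes, and those of Deptor and Eif4ebp1 are not shown. For Tsc2 the stretch stops where the neighbouring gene Nthl1 begins. The annotated Tsc2 gene comes within 3 bases of Nthl1. The start used for Tsc2 therefore lies within the gene, and most of these 52 bases lie inside its span. The regions are chr4:148448332-148448581 on the plus strand for Mtor, chr2:28640983-28641232 on the plus strand for Tsc1, chr17:24632628-24632679 on the minus strand for Tsc2 and chr5:24842362-24842611 on the minus strand for Rheb. Capitals mark the matches to the motifs below, of which Tsc1 had none.
Mtor: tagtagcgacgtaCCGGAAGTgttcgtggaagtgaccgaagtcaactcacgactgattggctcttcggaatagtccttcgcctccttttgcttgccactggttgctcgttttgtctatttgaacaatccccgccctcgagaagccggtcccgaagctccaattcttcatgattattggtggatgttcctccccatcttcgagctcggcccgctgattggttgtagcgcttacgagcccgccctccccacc
Tsc1: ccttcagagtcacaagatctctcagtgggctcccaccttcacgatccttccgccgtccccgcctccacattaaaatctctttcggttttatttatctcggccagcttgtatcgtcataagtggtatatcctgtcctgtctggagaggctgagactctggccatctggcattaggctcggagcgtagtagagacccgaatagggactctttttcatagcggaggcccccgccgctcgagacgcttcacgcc
Tsc2: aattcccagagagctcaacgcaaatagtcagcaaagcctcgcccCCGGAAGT
Rheb: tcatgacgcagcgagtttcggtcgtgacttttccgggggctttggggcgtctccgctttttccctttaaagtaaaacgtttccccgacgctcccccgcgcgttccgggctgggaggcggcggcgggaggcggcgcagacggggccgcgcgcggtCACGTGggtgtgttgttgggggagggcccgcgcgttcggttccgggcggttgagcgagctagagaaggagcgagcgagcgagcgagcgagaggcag

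Each window of 300 bases (250 before the start and 50 after it) was searched on both strands for 4 motifs, none of which contains another. CCGGAAGT, a site of Ets factors, was found for Mtor, Tsc2 and Akt1s1, against 3.89% of all 32851 windows, and it begins at position -237 in Mtor and -8 in Tsc2. CACGTG, an E-box of the kind that Tfeb and Myc bind, was found for Rheb at position -96, against 7.15% of windows. GTAAACA, a Foxo site, and TGACGTCA, the cAMP response element, were found for none of the 8 genes, against 3.65% and 1.79% of windows. A match is a description of these letters only.

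Some neighbours in the genome share or abut the transcribed region of these genes. In GRCm38, Tsc2 overlaps Pkd1 and starts close to Nthl1, Mlst8 overlaps Bricd5, and Angptl7 lies within Mtor. Their differences between KO and WT livers were 0.08, -0.08, -0.11 and -0.04, and none reached an unadjusted p under 0.05.

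None of the closest relatives of these genes reached an unadjusted p under 0.05. Of the paralogues and the third Tsc subunit, 4 of 5 were measured, and Eif4ebp3 was not analysed here. Tbc1d7, the third subunit of the Tsc complex, differed by 0.01 (SE 0.13), the Rheb paralogue Rhebl1 by -0.04 (SE 0.13) and the second S6 kinase gene Rps6kb2 by -0.04 (SE 0.13). Tbc1d7 and Rhebl1 were dim, with mean signals of 4.53 and 4.21 against a median of 5.26 over all genes. Rps6kb2 read 6.85, 6.63 and 6.64 in KO livers and 6.84, 6.59 and 6.80 in WT livers. Eif4ebp2, which encodes another 4E-BP, read 7.59, 7.51 and 7.49 in KO livers and 7.44, 7.67 and 7.99 in WT livers, a difference of -0.17 (SE 0.15) with the highest signal in B302, as for Eif4ebp1.

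The 4 subunits particular to mTORC2, the second complex of the kinase, which phosphorylates Akt, gave a median of -0.00082 (-0.09 over the genes above the median signal). Mapkap1, which encodes Sin1, was 8.11, 8.02 and 8.16 in KO mice and 8.40, 8.12 and 8.70 in WT mice, a difference of -0.31 (SE 0.16, limma unadjusted p = 0.0775). Rictor, the scaffold that defines the complex, was 7.05, 7.25 and 6.80 in KO mice and 6.98, 7.02 and 6.25 in WT mice, a difference of 0.28 (SE 0.22). Both were at an extreme in B302, Mapkap1 at its highest and Rictor at its lowest. Prr5 differed by -0.09 and the dim Prr5l (mean signal 3.92) by 0.09. The 3 assembly factors of such kinases, Tti2, Telo2 and Tti1, differed by -0.10, 0.05 and 0.00.

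Beyond these genes, 13 lists covered the pathway from its inputs to its targets, with 98 of 105 genes measured. None had an adjusted p under 0.05. At an unadjusted p under 0.05, 0 were higher and 6 were lower (6.12%, against 1.51% of all genes). In 0 of the 98 were all KO mice above all WT mice, and in 7 they were all below (7.14%, against 3.70%). The 7 were Nprl3, Fnip2, Pik3r1, Ctsd, Neu1, Phgdh and Chac1, and Fasn was the sixth gene past the unadjusted level, with overlapping groups. The median difference of the 98 was -0.03. The lists were drawn up with earlier results of these data known, so the excess of lower genes is a description.

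**Figure D4:**
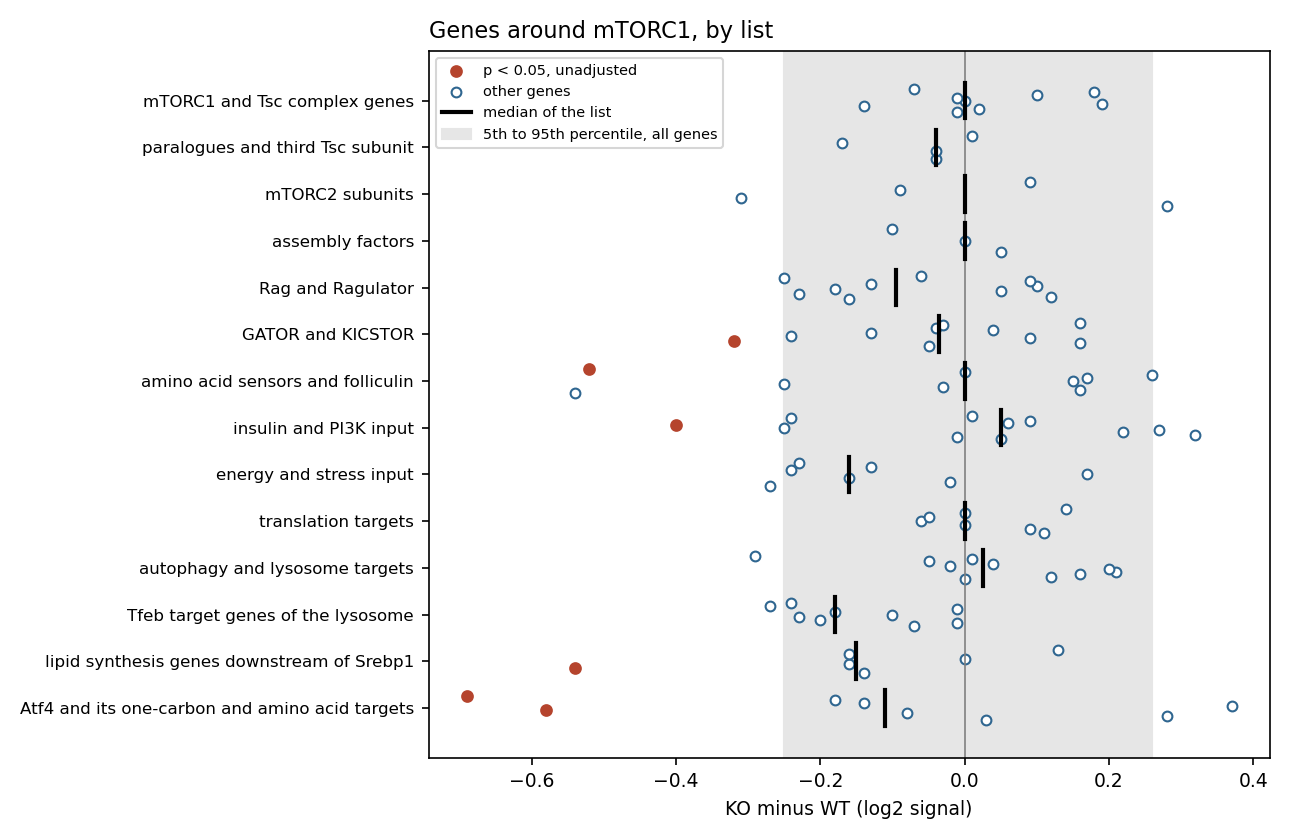
Difference between KO and WT livers (log2 signal, x axis) of each measured gene of 14 lists (rows), as red points where the unadjusted p from limma is under 0.05 and open points elsewhere. Black bars are list medians and the grey band spans the 5th to 95th percentile of all genes (-0.25 to 0.26). The mTORC1 and Tsc complex genes all lie inside the band, and the 6 red points all lie on the KO-lower side.

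Upstream, on the amino acid branch, the genes past the unadjusted level were Nprl3 and Fnip2, both lower in KO livers. The 10 Rag and Ragulator genes, which place mTORC1 on the lysosome, had a median of -0.09 (-0.0031 without B267, and -0.02 with the mean of probe sets) with none past the unadjusted level, and the one with the smallest p, Lamtor5, differed by -0.25 (SE 0.18), followed by Rraga at -0.16 and Rragc at -0.23. Of the 10 measured GATOR and KICSTOR genes, Nprl3, a subunit of the GATOR1 complex that switches the Rag GTPases off, read 5.72, 5.59 and 5.38 in KO livers and 5.93, 5.94 and 5.78 in WT livers. Its groups did not overlap, with a difference of -0.32 (SE 0.13, limma unadjusted p = 0.0351). Wdr24 and Itfg2 differed by -0.24 and 0.16. Fnip2, a partner of folliculin in activating the Rag GTPases, read 6.11, 6.42 and 5.79 in KO livers and 6.52, 6.87 and 6.48 in WT livers. All KO values were below all WT values, with a difference of -0.52 (SE 0.18, unadjusted p = 0.0194). In the same list of 9 sensors and folliculin genes, the arginine sensor gene Castor1 differed by -0.25 (SE 0.14). The sestrin gene Sesn1 differed by -0.54 (SE 0.32) with groups that overlapped widely, and the list median was -0.0023 (-0.15 without B302, and 0.10 without B256).

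On the insulin side, 7 of 11 measured genes were above 0 and the median was 0.05 (-0.09 without B302, and 0.15 without B256). Pik3r1, the regulatory subunit of phosphoinositide 3-kinase, read 9.28, 9.69 and 9.86 in KO mice and 10.01, 10.14 and 9.88 in WT mice. The groups lay side by side without overlap, with a difference of -0.40 (SE 0.16, unadjusted p = 0.0385), and it was -0.79 within the two-hundreds and -0.10 within the three-hundreds. Pik3cb and Akt1 differed by -0.25 and -0.24. Of the 7 measured energy and stress genes 6 were below 0, with a median of -0.16 (-0.07 without B302, and -0.06 without B256). Prkaa1, a catalytic subunit gene of Ampk, differed by -0.27 (SE 0.17), Gsk3a by -0.24 and Ddit4l by 0.17, and none of the list reached an unadjusted p under 0.05.

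Downstream, the 7 translation targets differed by -0.06 to 0.14, and none reached the unadjusted level. The cap-binding protein gene Eif4e differed by 0.11, the polymerase III repressor gene Maf1 by 0.14 and Eif4b by 0.09. The list of 10 regulators of autophagy, the lysosome and other processes that mTORC1 acts on had a median of 0.03. Those with the smallest p were Atg101 at 0.21, Rb1cc1 at 0.16 and Lpin1 at -0.29. The 9 measured Tfeb target genes of the lysosome were all below 0, with a median of -0.18 and none past the unadjusted level. The median was -0.06 without B305 or B256, and -0.07 with the number series as a block. Neu1, a lysosomal sialidase, read 6.06, 6.01 and 5.95 in KO livers and 6.33, 6.28 and 6.11 in WT livers. Ctsd, the protease cathepsin D, read 9.90, 9.91 and 9.94 in KO livers and 10.17, 9.99 and 10.18 in WT livers. Neither group pair overlapped, with differences of -0.24 (SE 0.11) for Neu1 and -0.20 (SE 0.11) for Ctsd, and Atp6v1h differed by -0.18. The mean of this list per mouse, relative to the WT mean, was 0.01, -0.19 and -0.25 in the KO livers, against 0.22, 0.01 and -0.22 in the WT livers, so the groups overlapped.

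Among the 6 measured lipid synthesis genes downstream of Srebp1 the median was -0.15, but its direction turned to 0.12 with the number series as a block and to 0.07 without B267. It was -0.36 without B302 and -0.03 without B305. Fasn, the fatty acid synthase, read 6.89, 6.54 and 6.60 in KO livers and 7.46, 7.40 and 6.82 in WT livers. The KO mouse B253 lay just above the WT mouse B302, and the difference was -0.54 (SE 0.19, unadjusted p = 0.0179). Srebf1 and Acaca differed by -0.14 and -0.16. Of the 8 genes of Atf4 and its amino acid targets, 2 were at the lower end of the whole pathway. Chac1, an enzyme that degrades glutathione, read 5.95, 6.11 and 6.14 in KO livers and 6.79, 6.53 and 6.93 in WT livers. Its groups were well apart, with a difference of -0.69 (SE 0.14, unadjusted p = 0.000789). Phgdh, which commits a glycolytic intermediate to serine synthesis, read 5.39, 5.43 and 5.77 in KO livers and 6.03, 6.05 and 6.27 in WT livers, a difference of -0.58 (SE 0.14, unadjusted p = 0.00285). Mthfd2 was on the other side, at 0.37 (SE 0.24), and the list median was -0.11 (-0.24 without B253, -0.01 without B304, -0.04 without B305, and -0.36 over the genes above the median signal).

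Of the markers of other liver cells, none had an adjusted p under 0.05. The median difference was -0.17 for 10 stellate cell genes, -0.20 for 10 sinusoidal endothelial genes, -0.16 for 10 Kupffer cell and macrophage genes, -0.0017 for 5 cholangiocyte genes, -0.19 for 6 T and NK cell genes and 0.26 for 6 neutrophil genes. All KO mice lay below all WT mice for 1 stellate gene (Lrat), 1 cholangiocyte gene (Epcam) and 3 T and NK cell genes (Cd3e, Cd3d and Nkg7), and above them for 1 neutrophil gene (Csf3r), against 3.70% of all genes below and 3.46% above. Cd3d, Epcam, Csf3r and Nkg7 were dim, with mean signals of 3.59, 4.25, 4.67 and 4.96 against a median of 5.26 over all genes. Lrat and Cd3e, at 5.61 and 5.71, were above that median. The mean of the stellate cell genes relative to WT was -0.15, -0.30 and -0.08 in KO mice and 0.06, 0.01 and -0.07 in WT mice. These groups were apart, but only between -0.08 and -0.07. The sinusoidal endothelial mean was -0.10, -0.19 and -0.20 in KO mice and 0.22, -0.07 and -0.15 in WT mice, which overlapped. The means of the Kupffer cell, cholangiocyte and neutrophil genes overlapped as well. The T and NK cell mean was -0.28, -0.24 and -0.08 in KO mice and -0.06, 0.20 and -0.15 in WT mice, which overlapped. The part of these cells in the values of Deptor and of the pathway genes was not tested.

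For each of the 9 genes the pathway gene with the most similar signal over the 6 arrays was taken, out of 107 genes searched, as a description. Mtor followed Ctsb, cathepsin B, at r = 0.99 and Rheb followed Pik3ca, a catalytic subunit of phosphoinositide 3-kinase, at r = 0.96. Tsc2 followed Rictor at 0.94, Mlst8 followed Castor1 at 0.93, Akt1s1 followed Telo2 at 0.91, Tsc1 followed Rragc at 0.90, Eif4ebp1 followed Eif4ebp2 at 0.88, Rptor followed Maf1 at 0.85 and Deptor followed Bmt2 at 0.73. Among the 9 themselves the highest r was 0.80 (Rptor and Akt1s1) and the lowest was -0.91 (Rheb and Eif4ebp1). The 6 points of each value share the same arrays, B302 among them.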

How the data were processed

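Total liver RNA of 3 KO and 3 WT mice was hybridized to 1 Affymetrix mouse gene array per mouse. The deposited values are log2 signals per probe set, which the authors obtained by RMA (the submitters' processing notes name RMA and Partek, with versions not given in the sources used here). RMA subtracts background, equalizes the distributions of the arrays and summarises probes, which compresses differences of dim probe sets. The methods name the Gene 2.0 ST array, while the identifiers of the deposited probe sets match the annotation of an earlier generation of that design. That annotation was used here.

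Of 35556 probe sets, 21789 carried 1 gene name, 1621 several and 12146 none. For 21698 of the 21789 the name was taken from the reference by gene ID, whether or not it changed. The brightest of several probe sets was kept (999 genes), which left 19938 genes, and no gene was filtered out. KO and WT were compared with limma 3.58.1 (lmFit and eBayes, R 4.3.3), all genes entering the Benjamini-Hochberg adjustment, at a threshold of 0.05, and the fit was tested on simulated data. Values are given as KO minus WT on the log2 scale, and fold as its antilog. The p-values of limma set each difference against the spread between mice, with each gene's variance moderated by that of all genes. The number of 3 mice per group limits the precision. For single values the exact permutation test was two-sided. Correlations are Pearson's r. Plots used Python 3.11.15 and matplotlib 3.10.9.

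The genes and lists were chosen with earlier results of these data known. Named in the text are all 10 genes, Stk11, the paralogues and mTORC2 subunits, up to 3 genes with the smallest unadjusted p of each other list, and the gene most alike to each of the 9 in signal. Ctsb, Pik3ca, Telo2, Rragc and Bmt2 are named by the last rule, and the neighbouring genes, marker genes and motifs were named in addition. Alternatives were quantile normalization, median centring, only genes above the median signal, the mean of probe sets, a trended and robust fit, array weights, the methods' t-test, a block for the mouse number series, and leaving out each mouse. The methods' t-test is the unpaired test that the paper gives for comparisons between groups. The paper's array analysis used BRB-Array Tools, which was not rerun here. Each setting was changed on its own.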

Additional observations from a re-analysis of the deposited data

How the results depend on the processing

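No paired analysis was possible because the labels give the groups no shared replicate numbers. The count of 0 called genes among the 9 was the same under all alternatives. By the methods' t-test 0 genes passed over the whole array (Stk11 -1.64, adjusted p = 0.566), and 1 of the 9 genes, Deptor, reached an unadjusted p under 0.05 as higher (1.39% of all genes). With 1 mouse left out, the count of called genes was 0 to 1, that of the 9 genes with groups apart 1 to 3, their median -0.05 to 0.12, and Stk11 -1.71 to -1.57. The count of 3 was reached without B256 (Deptor, Rheb and Rptor above WT, as were 9.38% of all genes) and without B267 (Deptor above, as were 7.77%, and Akt1s1 and Mlst8 below, as were 8.70%). Deptor was above 0 and Mlst8 below 0 under every alternative that gave a value.

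Signs near 0 were not stable. Akt1s1 was at 0.01 with quantile normalization and with median centring and at 0.04 with array weights. Mtor was at 0.0017 and Tsc1 at 0.0016 with median centring, and they were at 0.06 and 0.04 with the number series as a block. With 1 mouse left out, Mtor ran from -0.08 to 0.03, Rptor from -0.09 to 0.17, Akt1s1 from -0.17 to 0.12, Tsc1 from -0.10 to 0.12, Tsc2 from -0.05 to 0.18, Rheb from -0.00053 to 0.33 and Eif4ebp1 from -0.15 to 0.06. The cause was not tested. Mlst8 had no value among genes above the median signal, which leaves it out. Medians of pathway lists moved too when 1 mouse was left out. That of the lipid synthesis genes ran from -0.36 to 0.07, and that of the mTORC2 subunits from -0.03 to 0.03.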
